A study of Mus musculus with 28 samples.

Results

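Neurons recognise their partners and their layer through adhesion molecules, and the set described here holds the families of this kind that the array measured. They are the neurexins and neuroligins, the leucine-rich repeat families (LRRTM, SLITRK, FLRT, LRFN, LRRN and the netrin-G ligands encoded by Lrrc4, Lrrc4b and Lrrc4c), and the immunoglobulin families (synaptic CADM proteins, NCAM, the L1 family, contactins with their CNTNAP partners, DSCAM and sidekicks). Members were matched by gene symbol alone, from genes with 1 symbol on their array row, and no measured value entered the match. The families themselves were chosen with earlier results of these data known. The symbol patterns found 53 of 13617 genes. Of these, 46 are adhesion genes. The other 7, Lrrc40, Lrrc41, Lrrc42, Lrrc45, Lrrc46, Lrrc47 and Lrrc49, share only the letters of the Lrrc4 name and are described apart.

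As background, neurexins sit on the presynaptic membrane and bind neuroligins and LRRTM proteins on the postsynaptic side, while SLITRK proteins and netrin-G ligands bind receptor tyrosine phosphatases or netrin-G proteins across the cleft. Contactins, DSCAM and sidekicks carry chains of immunoglobulin and fibronectin domains. In the inner plexiform layer of the retina, where amacrine cells meet bipolar and ganglion cells, sidekicks and DSCAM proteins are known from chick for matching neurites to sublayers, and Dscam is known from mouse for keeping processes of the same amacrine type from clumping. Amacrine cells are inhibitory interneurons, and their neurites stratify in this layer in the first postnatal weeks.

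Expression was measured on 28 arrays, from 200 fluorescent cells sorted from mouse retina a sample, and values are log2 expression. Arc amacrine cells were sampled on 21 arrays from postnatal day 1 (P1) to P20, 1 a day and 2 at P6, with 1 more array at P43. Starburst cells, which are the cholinergic amacrine type, have 3 arrays at P3 and 3 at P18. The design asks how the genes change as Arc cells mature and how starburst cells differ at an early and a late age. Arc cells came from the line Tg(Arc-EGFP)194Gsat/Mmcd, in which EGFP follows the promoter of the activity-regulated gene Arc. Its founders were FVB/N-Swiss Webster hybrids that carry a recessive photoreceptor degeneration mutation, and the F2 of a backcross to C57BL/6J was used. Starburst cells were labelled with RFP by crossing 129S6-Chat_tm1(cre)Lowl/J with Rosa26-LSL-RFP, so the label marks cells in which the Chat locus has driven Cre. The labels disagree on the strain background of the starburst mice. Every Arc array has the batch entry "A and B" and every starburst array the entry "B", so that the batch, the line, the fluorophore and the cell type cannot be told apart. The series text mentions biological triplicates with 1 retina for each. It does not say whether 1 Arc column combines them, nor whether the retinas came from separate animals, so p-values measure the spread between these arrays only.

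The sorted populations were checked against their markers before the adhesion genes were read. The pan-amacrine list held Pax6, Tfap2a, Tfap2b, Gad1, Gad2, Slc6a9, Slc32a1, Meis2 and Stx1a. All 9 lay above background in Arc cells and 7 of 9 in starburst cells, where Gad2 and Meis2 did not. Not every gene of this list was thus shared by both types, and Slc6a9 was near background in starburst cells at P3, at 4.19. Of 6 starburst markers, 0 lay above background in Arc cells, 5 in starburst cells at P3 and 6 at P18. Background was the 95th percentile of 704 olfactory receptor genes in a group's mean, at 3.47 in Arc cells of P1 to P20 and at 4.0 in starburst cells at either age. Starburst replicates correlated across genes with r between 0.95 and 0.966, and both Arc arrays of P6 with 0.974. Among the 46 adhesion genes, 33 lay above background in Arc cells of P1 to P20, 21 in starburst cells at P3 and 22 at P18. Fewer genes passed in starburst cells over all genes too. A filter for genes above background left 6882 of 13617 genes for the Arc age trend and 5648 for the starburst ages. It left 39 and 26 of the 53 members. As the starburst cut-off was also the higher, these counts do not show that starburst cells express fewer adhesion genes.

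Sdk1 and Dscam stand among the adhesion genes lower in starburst than in Arc cells, and Nrcam and Flrt2 among those higher there, so the upstream sequence of these 4 genes is shown. Each run is the 250 bases before the annotated RefSeq start in GRCm38.p6, 5′ to 3′ on the gene's strand, and capitals mark the GC box GGGCGG or its reverse complement. The windows are chr5:141241284-141241533 on the plus strand for Sdk1, chr16:97170736-97170985 on the minus strand for Dscam, chr12:44328635-44328884 on the plus strand for Nrcam and chr12:95691976-95692225 on the plus strand for Flrt2.
Sdk1: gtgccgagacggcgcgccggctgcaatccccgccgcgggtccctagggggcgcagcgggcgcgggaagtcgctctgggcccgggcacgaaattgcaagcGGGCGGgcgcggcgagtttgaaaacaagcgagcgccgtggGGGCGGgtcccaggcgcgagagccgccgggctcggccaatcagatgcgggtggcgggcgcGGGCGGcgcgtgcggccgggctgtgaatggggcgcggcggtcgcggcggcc
Dscam: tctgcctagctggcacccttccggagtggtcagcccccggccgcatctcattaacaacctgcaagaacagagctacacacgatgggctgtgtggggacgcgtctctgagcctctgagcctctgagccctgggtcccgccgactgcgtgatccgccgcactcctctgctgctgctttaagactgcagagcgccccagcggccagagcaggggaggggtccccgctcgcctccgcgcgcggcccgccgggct
Nrcam: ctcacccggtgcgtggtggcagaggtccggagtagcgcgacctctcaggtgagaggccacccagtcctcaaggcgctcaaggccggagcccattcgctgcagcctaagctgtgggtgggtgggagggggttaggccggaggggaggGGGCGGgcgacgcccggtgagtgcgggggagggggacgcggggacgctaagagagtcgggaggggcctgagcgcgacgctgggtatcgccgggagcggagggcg
Flrt2: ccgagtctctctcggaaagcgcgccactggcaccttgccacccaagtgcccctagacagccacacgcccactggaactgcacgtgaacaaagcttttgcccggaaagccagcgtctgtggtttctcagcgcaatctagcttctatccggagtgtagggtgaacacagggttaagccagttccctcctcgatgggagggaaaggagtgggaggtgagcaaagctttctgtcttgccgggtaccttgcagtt
The Sdk1 window holds 3 GC boxes and 44 CpG dinucleotides at a GC content of 78.0%, and the Nrcam window 1 GC box and 25 CpG dinucleotides at 72.4%. The Dscam window holds none and 21 CpG dinucleotides at 68.0%, and the Flrt2 window none and 12 at 57.2%. A GC box thus stood before 1 gene of either direction. Promoters were counted for 41 of the 53 genes, 51 promoters in all. Member promoters on 1 chromosome were left out of this count, while the shares over all promoters left out no chromosome. A GC box lay in 16 of these 51, as against 32.7% of all 32851 promoters of the same length. An E box, CANNTG, which reads the same on both strands when spelled this way, lay in 29 of 51, as against 66.2%. TATAAA lay in 2 against 12.4%, CCAAT in 14 against 33.8%, TGACGTCA in 0 against 1.55% and TAATTA in 2 against 4.84%. All were searched on both strands, and a match describes letters only.

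In Arc cells 23 of the 46 adhesion genes changed with age between P1 and P20, 11 of them rising and 12 falling. Cntn4, Cntnap1, Sdk1 and Lrrtm3 were among the genes that rose, and Slitrk1, Cadm4 and Lrrtm1 among those that fell. Over all 53 members 24 passed the test, a linear fit in days by limma at an adjusted p under 0.05, where 37.7% of all genes did (14.7% rising, 23.0% falling). The median fitted change of the 46 was 0.03, against -0.13 for all genes, and the median size of change was 0.38, against 0.24. The all-gene median moved to -0.02 once each array was centred on its own median, and the calls over all genes moved from 2005 rising and 3132 falling to 2423 and 1478. The members' calls were then 13 rising and 11 falling. On the arrays of P1 to P16 alone, 7 of 53 members passed and 1966 of all 13617 genes did, where P1 to P20 gave 24 members and 5137 genes. In such bulk samples fewer cells of a type and less RNA per cell cannot be told apart.

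Among transsynaptic partners the neuroligins split. Nlgn1, known for excitatory synapses, had a lowest, median and highest level of 4.70, 4.91 and 5.29 in the 7 arrays of P1 to P6 and of 4.21, 4.56 and 4.80 in those of P14 to P20. It fell by 0.61 ± 0.13 (SE, 21 arrays; adjusted p = 0.000632). Nlgn2, the neuroligin of inhibitory synapses, went from 6.16, 6.24 and 6.75 to 5.80, 5.98 and 6.26. It fell by 0.53 ± 0.12 (adjusted p = 0.00103). Nlgn3, found at synapses of either kind, ran the other way, from 4.20, 5.28 and 5.42 to 5.22, 5.71 and 5.81. Its rise was 0.82 ± 0.19 (adjusted p = 0.00136). The early and late ranges overlapped for each of the 3. Nrxn3, the neurexin measured, stayed between 7.36 and 7.76 on all 21 arrays, with a fitted change of -0.17 and a 95% interval from -0.36 to 0.01.

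Of the 4 LRRTM genes, which encode postsynaptic neurexin or proteoglycan receptors, 2 fell and 1 rose. Lrrtm1 had a lowest, median and highest level of 4.48, 5.31 and 5.73 in the early window and 4.02, 4.54 and 4.91 in the late window, and fell by 0.87 ± 0.23 (adjusted p = 0.00462). Lrrtm4 fell by 0.82 ± 0.18 (adjusted p = 0.00122) at levels of 2.20 to 3.71, mostly under background. Lrrtm3 was at 2.55, 2.77 and 3.25 early and at 2.94, 3.80 and 3.97 late, a rise of 1.17 ± 0.23 (adjusted p = 0.000374) out of background, at least 1.07-fold between the windows. Lrrtm2 did not pass, with a change of 0.58 and an interval from -0.10 to 1.27.

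Slitrk1, a ligand of receptor tyrosine phosphatases, fell to the level of background. Its lowest, median and highest levels were 3.73, 4.72 and 5.30 early and 2.75, 3.39 and 4.11 late, and it fell by 1.73 ± 0.35 (adjusted p = 0.000378). Set against background it was at least 2.33-fold lower late than early. The day-to-day scatter was wide, with 4.42 and 5.30 on the P6 arrays and a return to 4.73 at P11. The other 4 SLITRK genes did not pass. Among ligands of latrophilins, Flrt3 fell by 0.61 ± 0.12 (adjusted p = 0.000424) at levels of 2.64 to 3.71, mostly under background, while Flrt1 and Flrt2 had changes of 0.05 and -0.12.

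The netrin-G ligands also split. Lrrc4c, the ligand of netrin-G1, was at 2.60, 3.84 and 5.42 (lowest, median, highest) early and at 3.57, 4.70 and 5.16 late, a rise of 1.11 ± 0.41 (adjusted p = 0.0364). That call rested on few arrays. It was lost on leaving out the array of P1, P2, P3, P17, P18 or P19 or replicate 1 of P6, and the 2 arrays of P6 differed by 1.59. Lrrc4b, the ligand of the phosphatase LAR, fell by 0.44 ± 0.11 (adjusted p = 0.004). Lrrc4 stayed below background. Lrfn2, which encodes a synaptic adhesion-like molecule, rose by 0.45 ± 0.16 (adjusted p = 0.0319), a call lost without the P1, P2, P3, P18 or P20 array. Lrrn3, a leucine-rich repeat protein, lay between 9.21 and 10.37 in Arc cells and did not pass, with a change of -0.36 and an interval from -0.73 to 0.02.

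All 3 measured CADM genes, which encode nectin-like adhesion proteins, changed. Cadm4 had levels of 5.82, 6.28 and 6.65 early and of 4.87, 5.27 and 5.78 late, and its late arrays all lay below its early ones. It fell by 1.36 ± 0.14 (adjusted p = 2.96e-08). Cadm3 rose by 0.65 ± 0.16 (adjusted p = 0.00234), from 6.50, 7.12 and 7.57 to 7.39, 7.55 and 7.65. Cadm1 fell by 0.51 ± 0.19 (adjusted p = 0.0394), a call lost on leaving out the arrays of P4, P5, P14, P15, P16, P17, P19 or P20 or replicate 2 of P6. Both NCAM genes were called higher. Ncam2 went from 3.31, 3.87 and 4.98 to 3.98, 4.62 and 4.88, a rise of 1.05 ± 0.27 (adjusted p = 0.00373), while the Ncam1 call was lost in 15 of the 21 fits with 1 array left out (adjusted p up to 0.341 over all alternatives). The 6 arrays without which it held were those of P3, P4, P5, P10, P11 and P20.

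Of the contactin family, Cntn4 and Cntnap1 rose and Cntn3 fell. Cntn4, an immunoglobulin protein known from mouse for wiring a set of ganglion cells to their brain target, was at 3.17 on P1, at 3.57 on P3, at 5.05 on P10 and at 6.09 on P20. Its early levels were 3.08, 4.17 and 5.25 and its late levels 5.23, 5.79 and 6.16, so the windows overlapped only through replicate 2 of P6. The rise was 2.60 ± 0.26 (adjusted p = 2.52e-08). Cntnap1, the contactin-associated protein of the paranode beside nodes of Ranvier, lay between 2.94 and 3.35 on the 7 early arrays, under background, and between 3.97 and 4.87 on the late ones, with no overlap. It rose by 1.90 ± 0.19 (adjusted p = 1.62e-08), and set against background the late window was at least 1.86-fold higher than the early one. Cntn1, its partner at the paranode, had a fitted change of -0.03. Cntn3, under background throughout, fell by 0.50 ± 0.13 (adjusted p = 0.00517).

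Sdk1, a homophilic recognition protein, was at 3.88, 5.25 and 5.87 early and at 5.62, 6.09 and 6.37 late. It rose by 1.52 ± 0.22 (adjusted p = 6.78e-06). Its paralog Sdk2 lay between 3.76 and 4.28 on all 21 arrays, with a change of 0.16 and an interval from -0.07 to 0.39. Dscam did not pass the linear test, at 0.12 with an interval from -0.50 to 0.74. Of the L1 family, whose members bind ankyrin, Nfasc rose by 0.53 ± 0.13 (adjusted p = 0.00212). Chl1 was called lower at levels of 1.95 to 2.36, below background, a call lost after cyclic loess and quantile normalization, and L1cam and Nrcam did not pass. Lrrn4, under background, was the remaining gene called lower, a call lost under all 3 other normalizations and without the array of P1 or P19. Of the 46 genes, 1 (Cntnap1) lay wholly above its early arrays in the late window and 2 (Cadm4 and Chl1) wholly below, where 5.67% and 3.14% of all genes did.

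**Figure D1:**
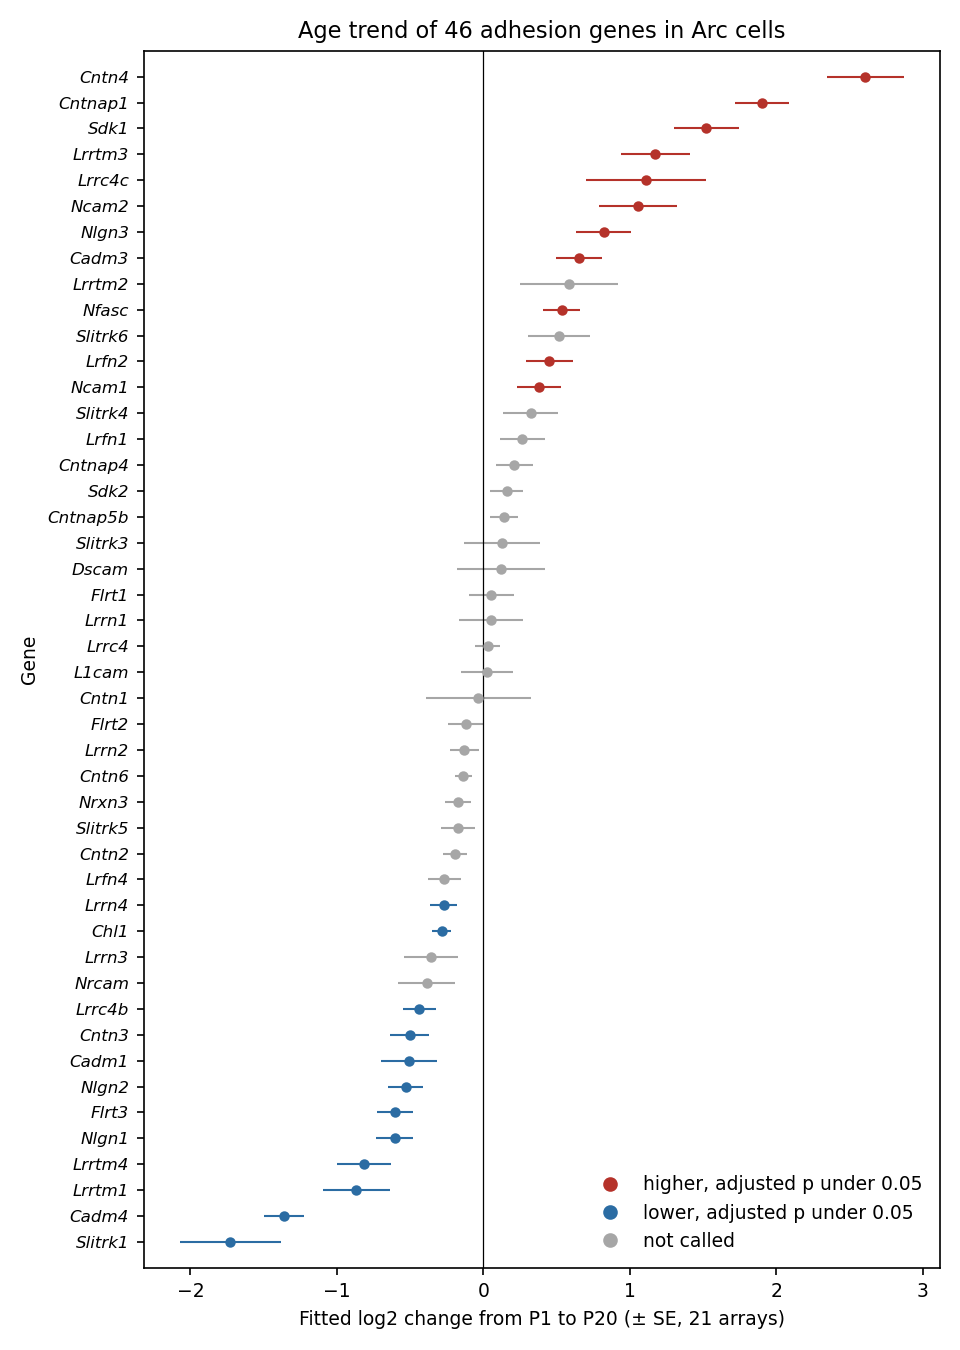
Fitted log2 change from P1 to P20 in Arc cells (horizontal axis, bars are SE over 21 arrays) for each of the 46 adhesion genes, red where called higher, blue where called lower and grey where not called. Cntn4 at 2.60 and Slitrk1 at -1.73 mark the ends, and 23 genes are coloured.

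Summed levels of markers of other retinal cells moved over the same days. Each sum is the log2 of the summed unlogged values, so the brightest genes weigh most in it. The 12 rod markers summed to 6.72 to 7.02 on the early arrays and 7.52 to 8.33 on the late arrays, with 3 and then 7 of 12 above background and Pde6b, Nrl, Rom1, Gngt1 and Rp1 never above it. The rod markers rose unequally. Gnat1 went from a mean of 3.05 to 6.63, Sag from 3.84 to 4.54 and Rcvrn from 4.45 to 4.55, while Nrl was at 2.63 and then 2.62. The 11 Muller glia markers went from 7.0 to 7.51 up to 8.03 to 8.61, with Rlbp1, Aqp4 and Kcnj10 not above background and 5 of 11 above it in either window. Its members did not move alike: Glul went from a mean of 3.20 to 5.77, Dkk3 from 5.43 to 7.25 and Clu from 3.71 to 5.45, while Vim went from 3.94 to 3.11. The 10 bipolar markers went from 6.53 to 7.43 up to 7.78 to 8.57, with 3 of 10 above background and Otx2, Vsx1 and Trpm1 not. Of these 10, Prkca went from a mean of 5.27 to 7.68 and Grik1 from 4.11 to 5.08. Every other bipolar marker had a lower mean late than early, as Grm6 did at 3.70 and then 3.47. The pan-amacrine sum lay between 11.17 and 11.63 throughout. The part of these sums in the adhesion gene trends was not tested.

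Split into windows of 7 arrays, no adhesion gene differed between P7 to P13 and P1 to P6 (0 of 53 members by limma, 11 at an unadjusted p under 0.05), where 0.492% of all genes did. Between P14 to P20 and P7 to P13, 3 of 53 differed, where 6.71% of all genes did (4.71% higher, 2.00% lower). Cntnap1 was higher by 0.68 ± 0.19 (SE; adjusted p = 0.0317) and Cntn4 by 0.92 ± 0.28 (adjusted p = 0.0478), and Chl1 differed by -0.14 ± 0.04 (adjusted p = 0.0498) below background. None of the 3 calls held in every fit with an array left out: no member was called without the array of P7, P8, P9, P11, P17, P18, P19 or P20, and 5 without that of P1.

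The first days looked unlike a straight line for several genes. Dscam was at 5.21 on P1, 6.09 on P2, 6.96 on P3 and 7.31 on P4, and then between 6.34 and 7.33 up to P20. Cntn1 was at 4.28 on P1, 4.81 on P2, 5.44 on P3, 6.22 on P4 and 6.47 on P5, and then between 5.09 and 6.59. Lrrtm2 was at 4.96 on P1 and between 6.08 and 7.36 on every later array. In each of these the P1 array was the lowest of all 21. The same held for 14 of 46 adhesion genes, or 30.4%, as against 8.56% of all genes, and P1 was the highest array for 9, or 19.6%, as against 13.7%. The low genes also include Nrcam, L1cam, Sdk1, Ncam1, Ncam2, Nlgn3, Lrrn3 and Slitrk3.

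A curve in age (natural spline of 3 degrees of freedom, chosen after the daily values were seen) departed from the line for Cntn1 alone among the 53 (adjusted p = 0.0310), where 0.220% of all genes did. With 4 degrees of freedom Cntn1 (adjusted p = 0.0135), Sdk1 (0.0372) and Dscam (0.0468) did, against 0.338% of all genes. Without the P1 array these adjusted p-values were 0.416, 0.670 and 0.813, and that of Cntn1 with 3 degrees of freedom was 0.666. On the P1 array the summed horizontal cell markers stood at 6.89, above the 5.48 to 6.39 of the other 20 arrays, and the ganglion cell markers at 7.56, within their 6.90 to 7.58. In the mean of P1 to P6, 3 of the 6 horizontal cell markers lay above background, and Onecut1, Lhx1 and Calb1 did not. The pan-amacrine sum was 11.26, within 11.17 to 11.63. The part of these markers in the low P1 levels was not tested, and P1 has a single array.

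The P43 array lay within the range of P17 to P20 for 25 of 46 adhesion genes, above it for 7 and below it for 14. Over all genes 50.7% lay within, 28.2% above and 21.1% below. Lrrtm3 was the clearest of the higher ones, at 4.25 against 3.18 to 3.97. Nrcam was at 4.69 against 5.13 to 5.45, L1cam at 5.52 against 5.87 to 6.14 and Nfasc at 5.39 against 5.73 to 5.83. Cadm1, Cadm3 and Cadm4 all lay below. With 1 array at P43 these are levels without a test.

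**Figure D2:**
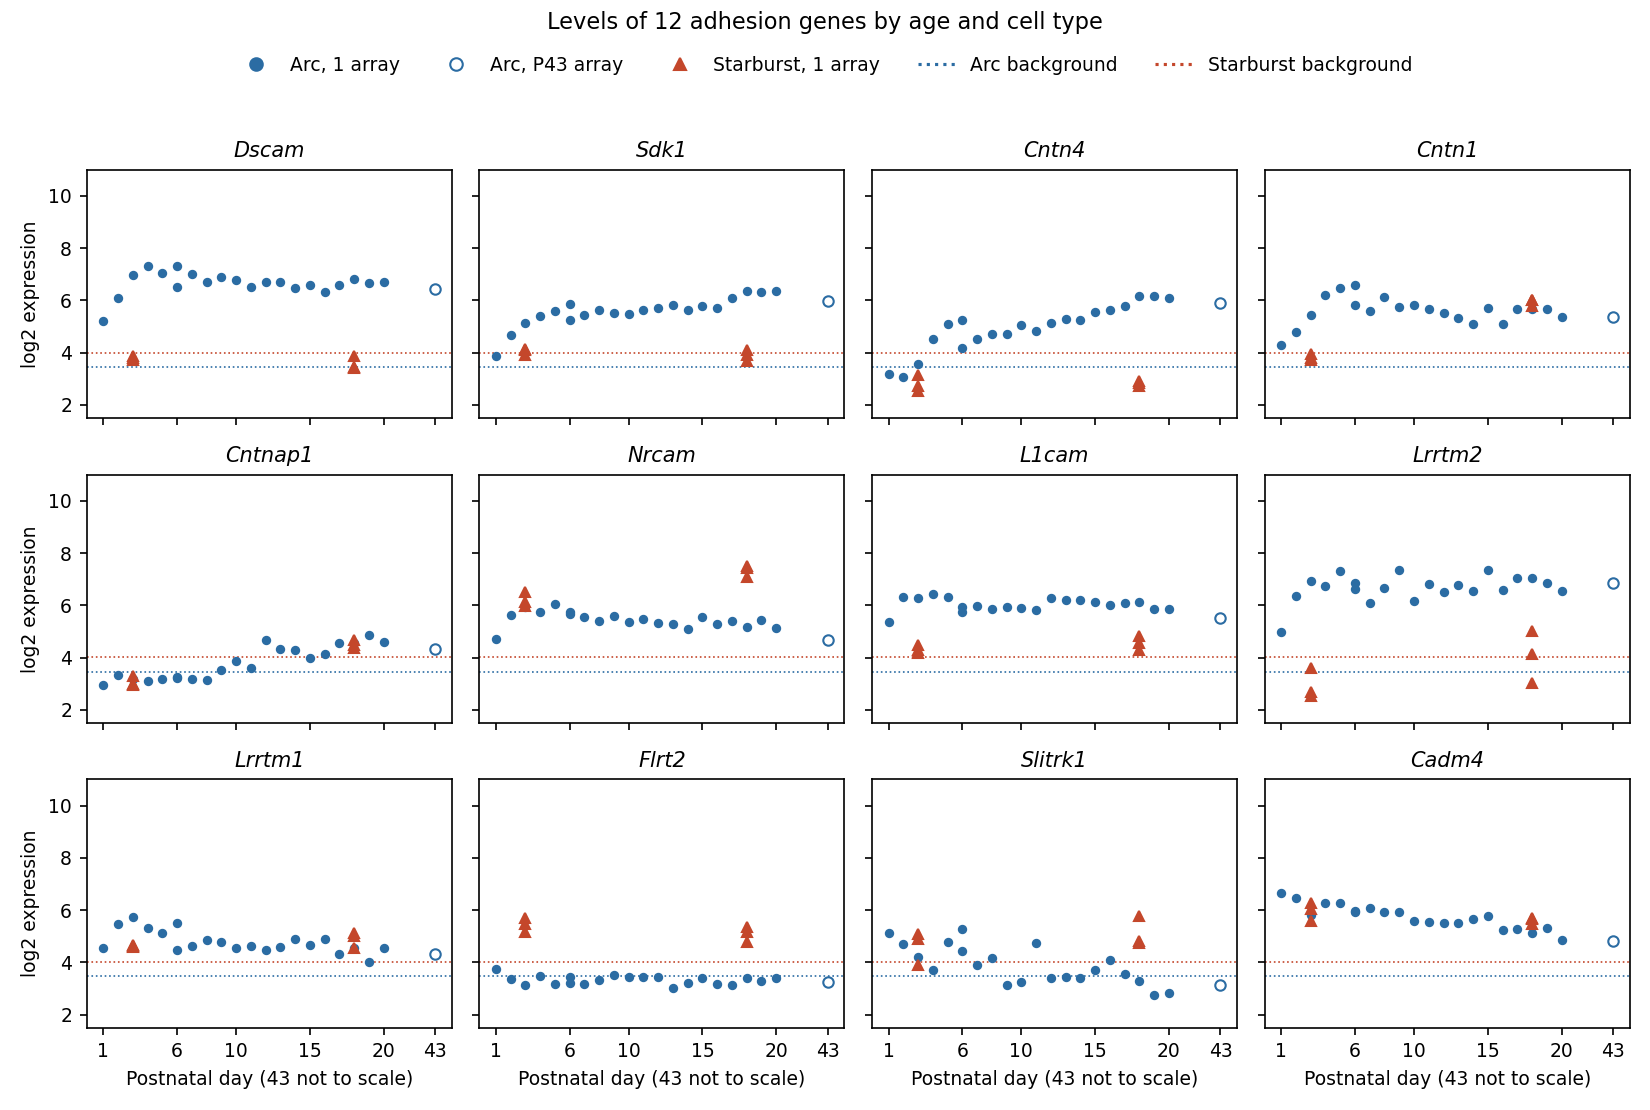
Log2 expression (vertical axis) of 12 adhesion genes by postnatal day (horizontal axis, P43 not to scale). Each point is 1 array, blue circles Arc, open circle Arc at P43, red triangles starburst, and dotted lines give the background of each cell type. Dscam, Sdk1 and Cntn4 in starburst cells lie near or under the red background line at both ages, while Nrcam and Flrt2 lie above the Arc points of like age.

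In starburst cells 10 of the 46 adhesion genes changed between P3 and P18, 6 rising and 4 falling. With Lrrc49 that made 11 of 53 members, where 8.65% of all genes passed (4.76% higher, 3.89% lower). With 3 arrays an age, 10 members lay wholly above their P3 arrays at P18 and 10 wholly below, where 11.3% and 15.7% of all genes did. Among genes above background only, 7 members passed. Cntn1 gave the greatest rise. It was at 3.72, 3.97 and 3.81 at P3, just under background, and at 6.01, 6.01 and 5.80 at P18, with no overlap. The difference was 2.11 ± 0.15 (SE, 3 against 3 arrays; adjusted p = 5.69e-05), and set against background the rise was at least 3.83-fold. Its paranodal partner Cntnap1 was at 2.96, 2.98 and 3.31 and then at 4.49, 4.65 and 4.35, a rise of 1.42 ± 0.17 (adjusted p = 0.000914), at least 1.41-fold against background. Both members of this pair thus rose in starburst cells, while in Arc cells only Cntnap1 passed the linear test.

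Nrcam, of the L1 family, was at 5.99, 6.50 and 6.13 at P3 and at 7.07, 7.50 and 7.43 at P18, a rise of 1.12 ± 0.19 (adjusted p = 0.00578). Flrt1, a latrophilin ligand, was at 4.02, 4.08 and 4.47 and then at 5.33, 5.26 and 5.44, a rise of 1.15 ± 0.17 (adjusted p = 0.00282). Cadm3 was at 7.52, 7.16 and 7.23 and then at 7.99, 8.34 and 7.91. Its rise of 0.78 ± 0.17 (adjusted p = 0.0207) was lost without replicate 2 or 3 of P3 or replicate 2 of P18. In each of these 3 genes every P18 array lay above every P3 array. Lrrc4c was higher by 0.87 ± 0.23 (adjusted p = 0.0493) with both ages under background, and the call was lost under all 3 other normalizations and whichever of the 6 arrays was left out.

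Lrrn3 gave the greatest fall in starburst cells. It was at 7.47, 8.01 and 7.44 at P3 and at 6.08, 5.13 and 6.45 at P18, and fell by 1.75 ± 0.32 (adjusted p = 0.00905). Cadm1 was at 6.48, 6.68 and 6.38 and then at 4.85, 5.11 and 5.08. It fell by 1.5 ± 0.16 (adjusted p = 0.00043). Nlgn1 was at 4.35, 4.33 and 4.64 and then at 3.42, 3.21 and 3.43, below background, at least 1.36-fold lower when set at it. The fitted difference was -1.09 ± 0.16 (adjusted p = 0.00299). The groups of these 3 genes did not overlap. Slitrk5 was lower by -0.69 ± 0.15 (adjusted p = 0.0213) under background at both ages, and the call was lost without replicate 1 or 2 of P3 or any 1 of the P18 arrays. Dscam, Sdk1, Cntn4 and Ncam2, under background in starburst cells or, for Sdk1, near it, did not pass, with differences of -0.23, -0.16, 0.04 and -0.02.

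Of the 46 genes, 3 (Cntnap1, Cadm3 and Lrrc4c) were called higher with age in both cell types, and 2 (Nlgn1 and Cadm1) were called lower in both, with none called in opposite directions. The share of all genes called in both cell types was not computed, so these counts cannot be read as particular to the set. Rod marker sums in starburst cells went from 6.94 to 7.11 at P3 up to 7.76 to 8.01 at P18, with 3 and then 5 of 12 above background and Nrl and Pde6b not. Of these 12, Gnat1 went from a mean of 3.15 to 6.14 and Nrl from 2.94 to 2.98. Bipolar marker sums went from 6.51 to 6.70 up to 7.38 to 7.50, with 1 and then 2 of 10 above background and Otx2, Vsx1 and Trpm1 not. Among them Prkca went from a mean of 3.80 to 6.63, while Grm6 went from 4.20 to 4.06. Vascular marker sums went from 7.43 to 7.60 down to 6.45 to 6.76, with 2 of 9 above background at either age and Cldn5 and Pecam1 not. Of these markers Kdr went from a mean of 6.79 to 4.05 and Egfl7 from 4.14 to 4.35. Their part in the changes was not tested.

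Starburst and Arc cells were compared at each age, with the arrays of P2 to P4 and of P17 to P19 standing in for Arc replicates. At P3, 12 of the 46 adhesion genes differed, 1 higher and 11 lower in starburst cells. At P18, 17 differed, 5 higher and 12 lower. Over the 53 members 14 differed at P3, where 10.8% of all genes did (5.13% higher, 5.66% lower), and 19 at P18, where 20.7% did (9.69% higher, the others lower). Centring every array on its median turned the members' P18 split of 6 higher and 13 lower into 4 and 18. Over all genes it turned 1320 higher and 1500 lower into 556 and 2206, so the move towards lower was general. At P3, 8 members lay wholly above the Arc arrays and 15 wholly below (all genes 16.9% and 11.2%), and at P18 16 and 18 did (26.6% and 17.8%). These comparisons share their starburst arrays with the comparison of ages. There were 6 genes (Dscam, Lrrtm2, Lrrn3, L1cam, Sdk1 and Ncam1) lower in starburst cells at both ages and 1, Flrt2, higher at both. The share of all genes called at both ages was not computed. The Ncam1 call at P18 did not hold under several alternatives, given with its values, and the Sdk1 call at P3 was lost with Arc P1 to P3.

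Dscam and Sdk1, which encode recognition proteins of the inner plexiform layer, were lower in starburst cells. Dscam was at 3.87, 3.73 and 3.81 in starburst cells at P3, under background, and at 6.09, 6.96 and 7.31 in Arc cells of P2 to P4. At P18 it was at 3.86, 3.42 and 3.45, against 6.58, 6.81 and 6.67 on the Arc arrays from P17 to P19. The differences were -2.98 ± 0.24 (SE, 3 against 3 arrays; adjusted p = 2.57e-06) and -3.11 ± 0.24 (adjusted p = 9.75e-07), or at least 6.87-fold and 6.45-fold lower when starburst cells are set at background. Sdk1 was at 4.09, 3.93 and 4.15 in starburst and at 4.67, 5.12 and 5.40 in Arc cells early, and at 3.90, 4.10 and 3.69 against 6.09, 6.37 and 6.34 late. The difference was -1.01 ± 0.18 (adjusted p = 0.00294) at P3 and -2.37 ± 0.18 (adjusted p = 8.67e-07) at P18, at least 4.81-fold lower. With Arc P1 to P3 in place of P2 to P4 the P3 difference of Sdk1 was -0.50 (adjusted p = 0.254). Sdk2 differed by -0.09 at P3 (interval -0.37 to 0.20) and by -0.38 at P18 (-0.67 to -0.10; adjusted p = 0.0571), so neither passed.

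Contactins differed by age. Cntn1 at P3 was at 3.72, 3.97 and 3.81 in starburst and at 4.81, 5.44 and 6.22 in Arc cells, at least 2.80-fold lower with the starburst level set at background. The fitted difference was -1.66 ± 0.26 (adjusted p = 0.000866). At P18 it did not pass, at 0.28 with an interval from -0.27 to 0.84. Cntn4 was the reverse. It did not pass at P3 (-0.93, adjusted p = 0.0572). At P18 it was at 2.93, 2.74 and 2.83 in starburst, under background, and at 5.79, 6.16 and 6.16 in Arc cells, at least 4.12-fold lower, with a fitted difference of -3.20 ± 0.29 (adjusted p = 3.54e-06). Cntnap1 did not pass at either age, with intervals from -0.45 to 0.20 and from -0.50 to 0.15.

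The L1 family moved in both directions. L1cam was at 4.50, 4.28 and 4.19 in starburst cells at P3 and at 6.30, 6.26 and 6.42 in Arc cells, and at 4.81, 4.30 and 4.55 against 6.08, 6.14 and 5.87 late. It differed by -2.01 ± 0.15 (adjusted p = 1.27e-06) and by -1.48 ± 0.15 (adjusted p = 1.34e-05). Nrcam did not pass at P3, at 0.45 with an interval from 0.08 to 0.81 (adjusted p = 0.115). At P18 its starburst arrays, at 7.07, 7.50 and 7.43, lay above the Arc arrays at 5.39, 5.16 and 5.45, a difference of 2.00 ± 0.17 (adjusted p = 2.05e-06), or 4.0-fold. Nfasc differed by 0.02 at P18, with an interval from -0.30 to 0.34. Ncam1 was lower in starburst cells by -0.89 ± 0.15 at P3 (adjusted p = 0.00159). At P18 it was at 7.28, 7.66 and 7.73 against 7.96, 8.07 and 8.03 and was called lower, but after cyclic loess the difference was 0.028. The call was also lost after quantile normalization, with Arc P18 to P20, and without starburst P18 replicate 1 or 2, starburst P3 replicate 2 or the Arc array of P3, P17, P18 or P19. Ncam2 at P18, under background in starburst cells, was at least 1.57-fold lower, with a fitted difference of -1.48 ± 0.16 (adjusted p = 2.71e-05).

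Leucine-rich repeat genes lay on either side. Lrrtm2, a neurexin receptor, was at 2.68, 2.55 and 3.62 in starburst cells at P3, under background, and at 6.36, 6.94 and 6.74 in Arc cells, at least 6.38-fold lower, with a fitted difference of -3.73 ± 0.40 (adjusted p = 3.03e-05). At P18 the starburst arrays scattered at 4.15, 5.01 and 3.04, all below the Arc arrays at 7.03, 7.03 and 6.84. The difference was -2.90 ± 0.40 (adjusted p = 0.000173). Lrrn3 was at 7.47, 8.01 and 7.44 against 10.02, 9.91 and 10.37 at P3, and at 6.08, 5.13 and 6.45 against 9.52, 9.67 and 9.64 at P18. It differed by -2.46 ± 0.27 (adjusted p = 4.51e-05) and by -3.72 ± 0.27 (adjusted p = 4.75e-07), or 5.50-fold and 13.2-fold. Lrrc4c at P18, under background in starburst cells, was at least 1.83-fold lower, with a fitted difference of -1.50 ± 0.34 (adjusted p = 0.0081). Lrrtm4 was lower at P3 by -0.75 ± 0.20 (adjusted p = 0.0313) under background in both cell types. The Lrrtm4 call was lost without starburst replicate 2 or 3 or the Arc array of P4.

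Flrt2 was the adhesion gene higher in starburst cells at both ages. It was at 5.15, 5.71 and 5.49 at P3 and at 4.79, 5.18 and 5.37 at P18, and on the matching Arc arrays between 3.13 and 3.46, with means under background. The difference was 2.13 ± 0.18 (adjusted p = 3.99e-06) and 1.83 ± 0.18 (adjusted p = 1.05e-05), at least 3.55-fold and 3.29-fold higher. Slitrk1 did not pass at P3, at 0.40 with an interval from -0.38 to 1.19. At P18 it was at 5.80, 4.82 and 4.75 in starburst and at 3.56, 3.30 and 2.75 in Arc cells, at least 3.31-fold higher, with a fitted difference of 1.92 ± 0.36 (adjusted p = 0.00235).

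Flrt1 and Lrrtm1 were called at both ages in opposite directions. Flrt1 in starburst cells was lower by -0.62 ± 0.16 at P3 (adjusted p = 0.0242) and higher by 0.82 ± 0.16 at P18 (adjusted p = 0.00293). Its P3 call was lost with Arc P1 to P3, and without starburst replicate 1 or 2 or the Arc array of P2 or P3. Lrrtm1 was lower by -0.88 ± 0.18 at P3 (adjusted p = 0.00689) and higher by 0.60 ± 0.18 at P18 (adjusted p = 0.0339). The P3 call of Lrrtm1 was lost with Arc P1 to P3 (-0.63, adjusted p = 0.179), and its P18 call was lost with arrays centred on their medians, with Arc P18 to P20, and without starburst replicate 2 or 3 or the Arc array of P17 or P19. Cadm1 was lower in starburst cells at P18 by -1.26 ± 0.17 (adjusted p = 0.000139), and neither it nor Nlgn1 passed at P3. Nlgn1 at P18, under background in starburst cells, was at least 1.43-fold lower, with a fitted difference of -1.17 ± 0.14 (adjusted p = 5.13e-05). Nlgn2 and Nlgn3 passed at neither age. Nrxn3 was called lower at P3, at 7.09, 7.42 and 7.01 against 7.65, 7.74 and 7.63, and Lrfn2 was called lower at P18, at 4.07, 3.74 and 3.94 against 4.24, 4.80 and 4.46, at least 1.42-fold with the starburst level set at background. The Nrxn3 call was lost after cyclic loess and quantile normalization, and without starburst P3 replicate 1 or 3 or the Arc array of P2, P3, P4 or P19. That of Lrfn2 was lost without starburst replicate 2 or 3 or the Arc array of P18 or P19.

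**Figure D3:**
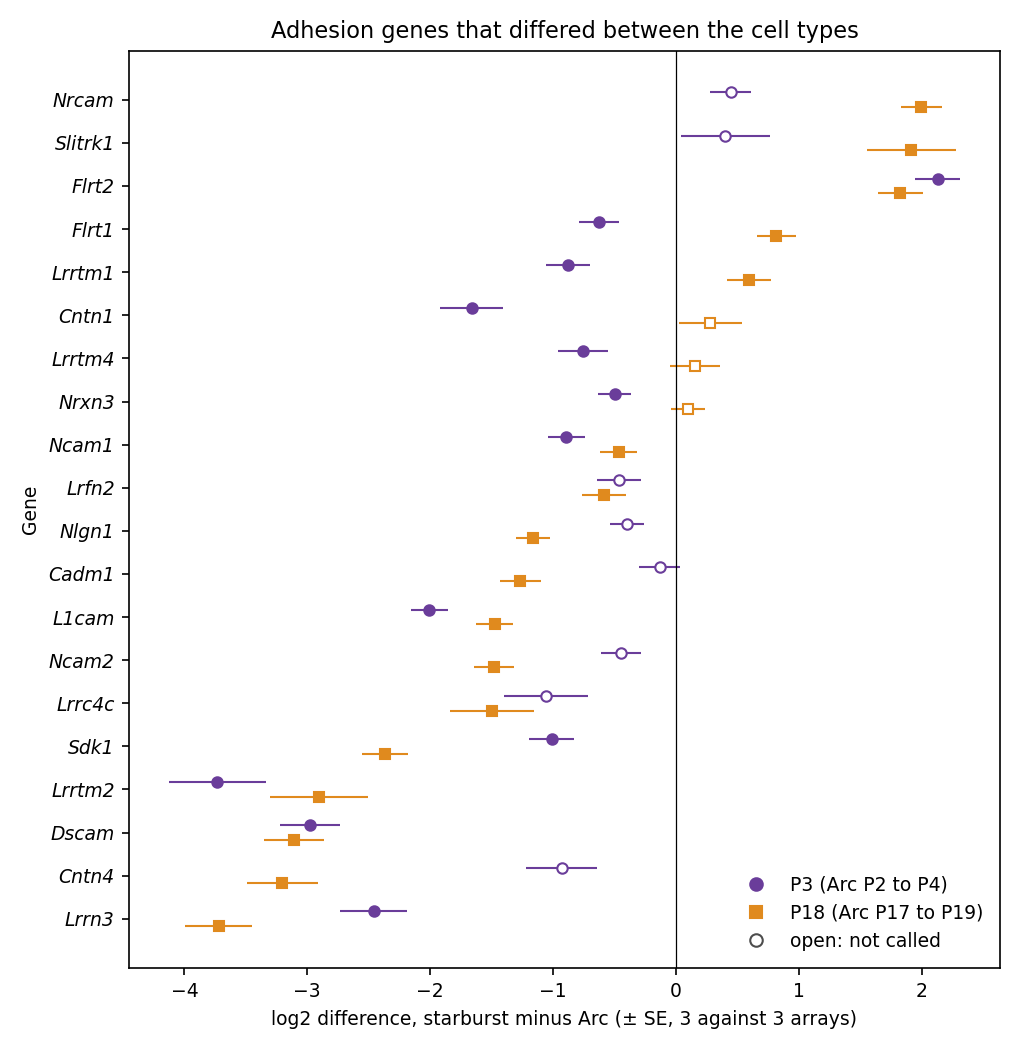
Log2 difference of starburst minus Arc cells (horizontal axis, bars are SE, 3 against 3 arrays) for the 20 adhesion genes called at P3 (circles), at P18 (squares) or both, filled where called. Lrrn3 at -3.72 and Nrcam at 2.00 mark the ends at P18, and Flrt1 and Lrrtm1 cross 0 between the ages.

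Marker sums of other cells also differed between the cell types. The 9 vascular markers summed to 7.43 to 7.60 in starburst cells at P3, against 6.19 to 6.48 in Arc cells of P2 to P4, with 2 of 9 above background in each and Cldn5, Pecam1 and Flt1 not. Kdr had a mean of 6.79 against 3.70 there. The 6 horizontal cell markers summed to 6.58 to 6.82 against 5.87 to 6.39, with 1 and 2 of 6 above background and Lhx1 and Onecut1 not. At P18 they summed to 6.41 to 6.60 against 5.48 to 5.54, with 2 and 1 of 6 above background. There Calb1 had a mean of 5.17 against 2.04 and Onecut2 of 4.46 against 3.81. Onecut1, Onecut3, Lhx1 and Prox1 were not above background in either cell type at P18. Bipolar markers at P18 summed to 7.38 to 7.50 against 8.50 to 8.57, with 2 and 3 of 10 above background and Otx2, Vsx1 and Trpm1 in neither. Prkca had a mean of 6.63 against 8.11 and Grik1 of 2.94 against 5.33, while Grm6 had 4.06 against 3.53. Muller glia markers at P18 summed to 6.89 to 7.34 in starburst cells, with 2 of 11 above background, and to 8.41 to 8.61 in Arc cells, with 5 of 11, and Rlbp1, Aqp4 and Kcnj10 in neither. Their part in the differences was not tested.

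The change from the early to the late age itself differed between the cell types for 9 adhesion genes, 4 with a greater change in starburst cells and 5 with a lesser or more negative one. This interaction passed for 9 of 53 members and for 4.02% of all genes (1.67% greater, 2.36% lesser). Cntn1 changed by 2.11 in starburst and by 0.17 in Arc cells, a difference in change of 1.94 ± 0.36 (SE; adjusted p = 0.00698). In Arc cells Cntn1 was still climbing over the stand-in days, at 4.81 on P2, 5.44 on P3 and 6.22 on P4, after 4.28 on P1. Its Arc change thus depends on the days chosen, and the interaction was not rerun with other stand-in days. Nrcam changed by 1.12 and -0.43, a difference of 1.55 ± 0.24 (adjusted p = 0.00192), and Flrt1 by 1.15 and -0.29, a difference of 1.44 ± 0.23 (adjusted p = 0.00214). Lrrtm1 changed by 0.28 in starburst and by -1.20 in Arc cells, a difference of 1.47 ± 0.26 (adjusted p = 0.00434).

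In the other direction stood Cntn4, with changes of 0.04 in starburst and 2.31 in Arc cells and a difference of -2.27 ± 0.41 (adjusted p = 0.00545), and Sdk1, with -0.16 and 1.20 and a difference of -1.36 ± 0.26 (adjusted p = 0.00819). Ncam2 changed by -0.02 and 1.02, a difference of -1.04 ± 0.23 (adjusted p = 0.0219). For Cntn4 (2.52 to 3.15) and Ncam2 (3.08 to 3.32) the starburst arrays lay under the background of 4.0 at both ages, and for Sdk1 near it. Their starburst changes are thus differences between levels at which a change may not show. Cadm1 changed by -1.50 and -0.37, a difference of -1.13 ± 0.24 (adjusted p = 0.0153), and Nlgn1 by -1.09 and -0.32, a difference of -0.77 ± 0.20 (adjusted p = 0.0441). The calls of Ncam2 and Nlgn1 depended on single arrays. That of Nlgn1 was lost on leaving out any 1 of the 12 arrays except that of Arc P4, and that of Ncam2 without starburst P3 replicate 2, starburst P18 replicate 1 or 3, or the Arc array of P2, P3 or P18.

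**Figure D4:**
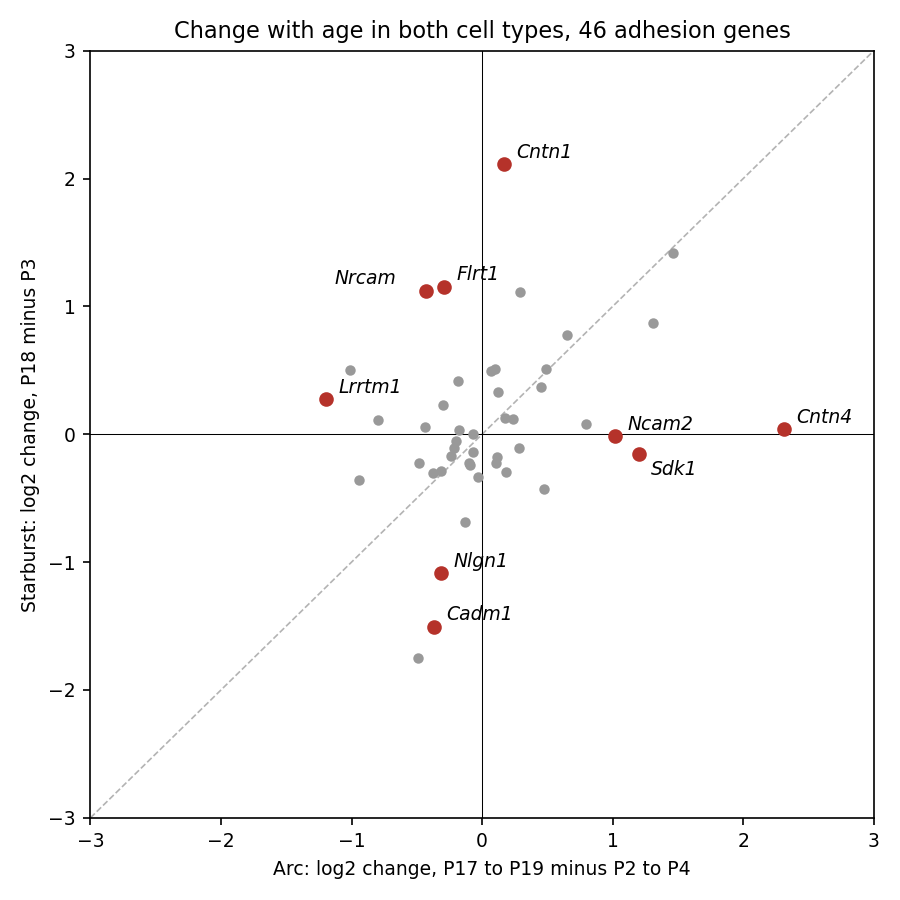
Log2 change from P3 to P18 in starburst cells (vertical axis) against the change from P2 to P4 up to P17 to P19 in Arc cells (horizontal axis) for 46 adhesion genes. The dashed line marks equal change, and the 9 red, named genes passed the test of the difference, from Cntn1 at 1.94 above the line to Cntn4 at -2.27 below it.

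The 7 genes that match by letters only behaved as follows. Lrrc49 was called in 4 of the 7 comparisons, lower with age in Arc cells (-0.59 ± 0.15, adjusted p = 0.0035) and in starburst cells (-0.91 ± 0.17, adjusted p = 0.00959), and lower in starburst than in Arc cells at P3 (-0.66 ± 0.14, adjusted p = 0.00777) and at P18 (-1.20 ± 0.14, adjusted p = 4.2e-05). Lrrc42 was higher in starburst cells at P3 by 0.73 ± 0.19 (adjusted p = 0.0299), or at least 1.52-fold with the Arc level set at background. This call was lost under all 3 other normalizations, with Arc P1 to P3, and without starburst replicate 2 or 3 or the Arc array of P3 or P4. Lrrc46 was higher at P18 by 0.57 ± 0.16 (adjusted p = 0.0217) under background in both cell types. This call was lost under all 3 other normalizations, where the difference went down to 0.35, and without starburst replicate 1 or the Arc array of P17 or P19. Lrrc40, Lrrc41, Lrrc45 and Lrrc47 passed in none of the 7 comparisons.

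Partners of these families were read from lists of known binding and scaffold genes. Of 26 measured synaptic scaffold genes, 17 rose and 2 fell with age in Arc cells, where 14.7% of all genes rose and 23.0% fell, and the median fitted change was 0.56 against -0.13 for all genes. Epb41l3, a protein 4.1 that binds CADM and CNTNAP tails, rose by 2.83 ± 0.16 (SE, 21 arrays; adjusted p = 2.7e-12), and Dlgap1, Magi3, Dlg2 and Dlg1 rose by 2.09, 1.64, 1.63 and 1.34. In starburst cells 9 of the 26 rose and 3 fell, where 4.76% and 3.89% of all genes did, with Magi3 (3.17 ± 0.23) and Apba1 (2.56 ± 0.20) among the rises. Epb41l3 was higher in starburst than in Arc cells at P3 by 2.76 ± 0.14, and its change with age differed by -3.36 ± 0.20 (adjusted p = 5.8e-07).

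Of 15 presynaptic receptors and ligands, 3 rose and 7 fell in Arc cells, where 14.7% and 23.0% of all genes did, with a median change of -0.33. The latrophilins Adgrl3 and Adgrl2, receptors of FLRT proteins, fell by 1.71 ± 0.17 and 1.69 ± 0.27, and the phosphatase Ptprd, a receptor of SLITRK proteins, fell by 1.08 ± 0.16. Clstn1, a calsyntenin, rose by 1.51 ± 0.12 and the teneurin Tenm1 by 1.41 ± 0.30. Between the cell types 7 of the 15 differed at P3 and 11 at P18, where 10.8% and 20.7% of all genes did. Ptprd was higher in starburst cells by 2.55 ± 0.14 and 3.23 ± 0.14 at the 2 ages, and Tenm2 by 2.35 ± 0.17 and 2.68 ± 0.17. Tenm1 differed by -2.47 ± 0.18 and -3.37 ± 0.18, so these teneurins took opposite sides. Clstn2 rose in starburst cells by 3.25 ± 0.20 (adjusted p = 2.4e-05).

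Of 23 cadherins and protocadherins, 5 rose and 12 fell in Arc cells, with a median change of -0.22. The shares of all genes were 14.7% and 23.0% here and for the lists that follow. Cdh2, the neural cadherin, was lower by -2.79 ± 0.17 and Cdh20 higher by 1.88 ± 0.23. Pcdh10 was higher in starburst cells by 1.83 ± 0.31 at P3 and 4.67 ± 0.31 at P18, and Cdh6 by 2.50 ± 0.23 and 3.99 ± 0.23. Cdh7 differed by -1.96 ± 0.28 and -3.29 ± 0.28. Of 7 transmembrane semaphorins and plexins of laminar targeting, 3 (Plxna1, Plxna3 and Sema5b) fell in Arc cells, and the median change was -0.43. Plxna2 was higher in starburst cells by 3.08 ± 0.22 at P3 and 2.54 ± 0.22 at P18, while its ligand Sema6a differed by -1.16 ± 0.19 and -2.11 ± 0.19, the first of these not called with Arc P1 to P3. The Sema5b call was lost under all 3 other normalizations. Of 11 IgLON and other immunoglobulin genes, 5 rose and 2 fell in Arc cells at a median change of 0.40, led by Thy1, which rose by 3.74 ± 0.32, and Ntm, which fell by 1.65 ± 0.17. Of 9 postsynaptic receptors, 1 (Elfn2) rose by 1.02 ± 0.17 and 4 fell, at a median change of -0.10.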

How the data were processed

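The authors deposited log2 values, 1 column an array. The submitters' processing notes name RMA, R 2.11.1 and genome build mm8. The base of the logarithm is not given in the sources used here. RMA gives base 2 by default, and the maximum of 11.15 lies above 11.09, the natural log of a full 16-bit reading. Scanner files and probe detection calls were not used here, so depth cannot be given and the number of arrays limits the precision. Which arrays were normalized together is not stated.

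Of 15170 rows, 13720 with 1 gene symbol gave 13617 genes, taking for 102 genes the row with the highest mean. All members had 1 row. Differences were tested with limma 3.58.1 (lmFit, eBayes with trend) in R 4.3.3, two-sided, with Benjamini-Hochberg adjustment over 13617 genes at 0.05, in 7 comparisons. P43 was held out of the fits. Where 1 group mean lay under the background of 704 olfactory genes, the text gives a fold against that background as "at least" beside the fitted difference, and where both did, no fold. Up to 10 rises and 10 falls past the threshold per comparison, the largest, carry an SE and adjusted p, and partner genes are named for the largest changes, at most 5 a list. Members, partner lists and tests were chosen with earlier results of these data known. The fits were tested on simulated data. Promoters came from RefSeq tables of GRCm38.p6. Alternatives were other normalizations, background filters, windows, stand-in days, a replicate block and leaving out each array.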

Additional observations from a re-analysis of the deposited data

Results flagged for a closer look

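The change with age differed between starburst and Arc cells for 9 adhesion genes by the test of the difference itself, starburst P18 minus P3 against Arc P17 to P19 minus P2 to P4. In log2 units the difference in change was 1.94 for Cntn1, 1.55 for Nrcam, 1.47 for Lrrtm1 and 1.44 for Flrt1, and -2.27 for Cntn4, -1.36 for Sdk1, -1.13 for Cadm1, -1.04 for Ncam2 and -0.77 for Nlgn1. Cell type, line, fluorophore and batch label cannot be told apart in this test. It was not rerun with other stand-in days for Arc cells.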

How the results depend on the processing

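Of 80 calls of members over the 7 comparisons, 45 were kept in every setting and 35 lost in at least 1. Among these, 1 reversed: Ncam1 between the cell types at P18 had a difference of 0.028 after cyclic loess, and the cause was not tested. Of 137 calls of partner genes, the 5 largest of a list, 102 were kept in every setting and 35 lost in at least 1, with 0 reversed. The trend gave 24 of 53 members on P1 to P20 and 7 on P1 to P16 only (4 higher, 3 lower). Over all 13617 genes it gave 5137 and 1966. The setting of P1 to P16 holds fewer arrays and a shorter span of days. Middle against early gave 0 members, 1 among genes above background only and 2 with windows of P1 to P7, P8 to P14 and P15 to P20. Late against middle gave 3 (2 higher, 1 lower), 1 after cyclic loess, 0 with those other windows and 1 higher and 2 lower after quantile normalization. Starburst P18 against P3 gave 11, and 7 among genes above background only, which leaves 26 members tested. Why these counts moved was not tested. Leaving out 1 array gave 20 to 24 calls for the trend, 0 to 1 for middle against early, 0 to 5 for late against middle, 8 to 10 for starburst P18 against P3, 11 to 16 for starburst against Arc at P3, 15 to 20 at P18 and 7 to 9 for the difference in maturation. With the replicate number as a block, starburst P18 against P3 called 10 members (6 higher, 4 lower), losing Slitrk5 alone. Same-numbered replicates of both ages did not deviate together (r of 0.05, 0.02 and -0.04), so the numbers were not taken to pair samples. A fit over all 28 arrays called 14. At P18, cyclic loess called 26 members between the cell types and quantile normalization 23, against 19. Signals near background limit Chl1, Cntn3, Flrt3, Lrrn4, Lrrtm4, Slitrk5 and Lrrc4c. Neighbouring days stood in for Arc replicates, so change between days adds to their spread.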
